A study of Homo sapiens with 12 samples.

Results

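The doxycycline response of one Caco-2 line was set against that of another, and 106 of 12566 genes tested (0.844%) responded differently. Caco-2 is a human colorectal cancer line. Per the labels and design text, the shRNA line carries an inducible hairpin against LRH-1 (gene NR5A2), and the control line, titled "Native", carries the manufacturer's non-silencing vector. All 12 of the 12 arrays of the series entered, in 4 groups of 3: shRNA line with doxycycline, shRNA line without it, control line with doxycycline, and control line without it. Doxycycline was given at 5 µg/ml and RNA was taken 96 h later. More than one hairpin sequence is described in the design text, with no label to tie an array to either. All 4 groups share the parental line, and per the design text the control line was produced with its vector in a like manner; whether a line is 1 clone is not given in the sources used here. Nothing states that the 3 arrays of a group came from separate cultures, so p-values measure the spread between these arrays, which may be technical.

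LRH-1 is a nuclear receptor of liver, pancreas and gut that switches on genes of bile acid, steroid and lipid handling. Doxycycline, an antibiotic, is also the switch of the hairpin vector, so a line's response to it holds an effect of the drug and an effect of whatever the vector expresses. The difference between the 2 responses removes only what is equal in both lines on the log2 scale. What is left may belong to the hairpin or to other differences between the lines, which cannot be told apart here. Without doxycycline the lines already differed for 16.3% of genes tested. Among the genes measured are those of the amino acid response: when amino acids run short or mitochondria are disturbed, the factor ATF4 binds C/EBP-ATF elements and raises genes of amino acid synthesis, uptake and tRNA charging.

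NR5A2 itself was read first, as a check of the labels. Its brightest probe gave normalised log2 intensities of 10.59, 10.59 and 10.84 with doxycycline and 10.13, 10.13 and 10.24 without it in the shRNA line. The control line gave 10.97 to 11.18 over the 3 arrays with doxycycline and 10.10, 10.12 and 10.27 without it. NR5A2 rose in both lines, by 0.50 in the shRNA line and 0.89 in the control line. The difference of responses was -0.39 (SE 0.15, 95% interval -0.71 to -0.06), with an adjusted p of 0.231 in limma. On that probe NR5A2 with doxycycline was lower in the shRNA line than in the control line (gap -0.38, SE 0.10, adjusted p 0.0216). Without doxycycline the gap was 0.0044 (adjusted p 0.983). A second probe, detected on all 12 arrays, read 10.27, 10.16 and 10.08 with doxycycline and 9.53, 9.80 and 9.67 without it in the shRNA line. In the control line it read 10.68, 10.37 and 10.27 with doxycycline and 9.79, 9.85 and 9.90 without it. It too was higher with doxycycline in both lines, but its untreated shRNA arrays tended to lie below the untreated control arrays. The untreated gap near 0 was thus read on the brightest probe alone. The targeted transcript was not below its untreated level in the line labelled shRNA, and "the shRNA line" below is the line so labelled.

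The 12 arrays had a median signal of 251 to 386 and 41.2% to 44.7% of probes detected, and arrays of one group correlated at 0.987 to 0.994. Of 11 Caco-2 epithelial markers with a probe, 10 were detected on all 12 arrays and 0 were called. With 0.844% of all genes tested called, 0 of 11 carries little information. Markers of other cell types were partly detected: 4 of 11 fibroblast markers were detected on all 12 arrays and 4 on none, 4 of 6 leukocyte markers on all and 1 on none, and 1 of 4 endothelial markers on all and 2 on none. On all arrays these were COL1A1, LUM, PDGFRA and PDGFRB, then CD14, CD68, CD74 and HLA-DRA, and PECAM1. On none they were COL1A2, FAP, POSTN and THY1, then PTPRC, and CDH5 and VWF. The number of arrays limits the precision: the median standard error of a difference of responses was 0.20 on the log2 scale.

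A difference of responses above 0 means that doxycycline moved the gene up more, or down less, in the shRNA line. Of the 106 genes, 58 lay above 0 (0.462% of genes tested) and 48 below 0 (0.382%), and 66 differed at least 2-fold. The response of each line alone passed the test for 1445 genes (11.5%) in the shRNA line, of which 815 rose (6.49%) and 630 fell (5.01%). In the control line 2009 genes passed (16% of those tested), of which 990 rose (7.88%) and 1019 fell (8.11%). Across the 12566 genes, which are not independent replicates, the responses correlated at a Pearson r of 0.51. An unadjusted p under 0.05 was reached by 1999 genes.

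The 58 genes took several forms. The largest were 20 that rose in the shRNA line with no call in the control line and 20 that fell in the control line with no call in the shRNA line. A further 9 rose in the shRNA line and fell in the control line, 6 rose in both lines and 3 fell in both. Of the 48 genes, 26 rose in the control line with no call in the shRNA line, 11 fell in the shRNA line and rose in the control line, and 10 fell in the shRNA line with no call in the control line. RFTN1, encoding the raft protein raftlin, was the 1 gene of the 48 that rose in both. Fitted responses had opposite signs for 69 of the 106 genes and for 4500 of the 12566 tested; the choice of genes by their difference bears on the first count.

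**Figure D1:**
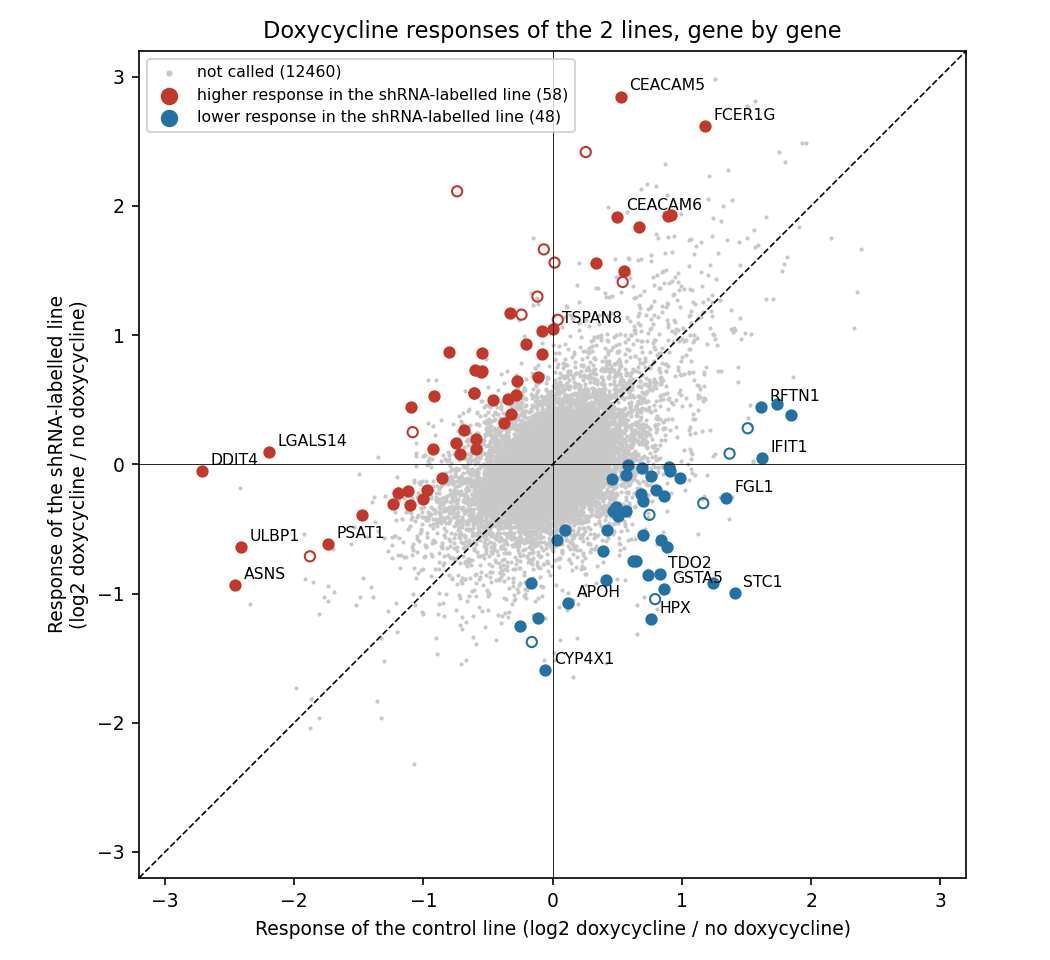
Response to doxycycline of every gene tested, with the shRNA line on the vertical axis and the control line on the horizontal axis (log2 of doxycycline over no doxycycline). Red marks the 58 genes with a higher response and blue the 48 with a lower response in the shRNA line, and open circles are called genes undetected on all 3 arrays of a group, whose positions are not sizes of change. Genes on the dashed line responded equally, and 69 of the 106 called genes had fitted responses of opposite signs.

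Of the 58 genes, 19 had the control line with doxycycline low against the other 3 groups, and 19 had the shRNA line with doxycycline high. In 13 the untreated shRNA line was low, and in 7 the untreated control line was high. Of the 48, 19 had the treated control line high, 16 the treated shRNA line low, 11 the untreated control line low and 2 the untreated shRNA line high. The gap between the lines was wider with doxycycline in 38 of the 58 and 35 of the 48 genes, and narrower in 20 and 13. These forms were counted for the called genes alone. The contrast that chose those genes also shapes the forms, so the counts only describe them. The gap passed the test with doxycycline and not without it in 22 of the 58 and 23 of the 48. It passed without doxycycline alone in 13 and 7. It passed in both states with the same sign in 16 and 12, and with opposite signs in 7 and 6, as for DDIT4 and FGL1. Of all genes tested, 22.6% had a gap that passed in the treated state and 16.3% in the untreated state. Those shares include genes that passed in both states, so they are not a background for these counts.

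The number of calls depended on single arrays. Without 1 array of the shRNA line with doxycycline it was 18, 23 and 206, for replicates 1 to 3 in turn. Without 1 array of the shRNA line without doxycycline it was 19, 29 and 20. Without 1 array of the control line with doxycycline it was 27, 75 and 15, and without 1 of the control line without doxycycline 29, 23 and 135. All 106 genes kept their sign in each of those 12 fits, and 14 passed the threshold in all of them. The genes were chosen on the same arrays for differences that were large against their standard errors. A kept sign was therefore nearly settled by that choice. Scaling each array to its median in place of quantile normalisation moved the median of all genes by -0.14 and gave 20 genes above 0 and 44 below, so that 31.2% of calls lay above 0 against 54.7% with quantile normalisation. Of the 106 genes, 35 kept their call with median scaling, 14 above 0 and 21 below. The genes nearest the threshold on the inside were IARS1, NAP1L1 and MIR21 (adjusted p 0.0492 each). Just outside were ENO2 at 1.33, WDR81 at -0.84 and ADCY3 at 0.71, with adjusted p-values of 0.0505, 0.0505 and 0.0512.

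The called genes of the amino acid response fell less with doxycycline in the shRNA line, or did not pass the test there, and all fell in the control line. DDIT4, which encodes the mTORC1 inhibitor REDD1, had the smallest adjusted p of the 106. It read 12.47, 12.38 and 12.57 with doxycycline and 12.71, 12.24 and 12.63 without it in the shRNA line. In the control line it read 10.43, 10.56 and 10.27 with doxycycline and 13.04, 13.28 and 13.08 without it. The treated control arrays lay below every other array. DDIT4 had a response of -0.05 in the shRNA line and fell 6.57-fold in the control line, a difference of 2.66 (SE 0.19, adjusted p 0.000159). It passed the threshold in all 24 alternatives.

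ASNS, asparagine synthetase, read 12.26, 12.38 and 12.15 with doxycycline and 13.23, 13.06 and 13.30 without it in the shRNA line. Control-line arrays read 11.26, 11.80 and 11.32 with doxycycline and 13.92, 13.86 and 13.97 without it. The groups did not overlap: the treated control arrays were lowest and the untreated control arrays highest. ASNS fell in both lines, by 0.93 in the shRNA line and 2.46 in the control line, a difference of 1.52 (SE 0.20, adjusted p 0.0106). Its second probe gave 1.37. With median scaling the difference was 1.19, with an adjusted p of 0.126.

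PSAT1, phosphoserine aminotransferase of serine synthesis, read 11.40, 11.53 and 11.34 with doxycycline and 12.12, 11.78 and 12.21 without it in the shRNA line. The control line gave 10.49, 10.78 and 10.54 with doxycycline and 12.45, 12.38 and 12.19 without it. PSAT1 also fell in both lines, by 0.62 in the shRNA line and 1.74 in the control line. The one-carbon enzymes MTHFD1 and MTHFD1L, which make and use formyl-tetrahydrofolate, had responses of 0.12 and -0.30 in the shRNA line that did not pass the test. They fell by 0.92 and 1.24 in the control line. The differences were 1.12 for PSAT1, 1.04 for MTHFD1 and 0.93 for MTHFD1L.

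SLC7A1, the CAT1 transporter of arginine and lysine, differed by 0.91, with a response of -0.21 in the shRNA line and a fall of 1.12 in the control line. IARS1 and EPRS1, which charge isoleucine and both glutamate and proline onto their tRNAs, differed by 0.79 and 0.75. Their responses were -0.31 and -0.10 in the shRNA line, and they fell by 1.11 and 0.85 in the control line. ULBP1, a stress-induced ligand of the NKG2D receptor, differed by 1.77. It was detected on all shRNA arrays, on 1 of 3 treated control arrays and on all untreated control arrays. Each of these 4 genes and MTHFD1L passed the threshold in 1 or 2 of the 12 fits that left out an array, and PSAT1 and MTHFD1 in 4. With median scaling PSAT1 and MTHFD1 had adjusted p-values of 0.358 and 0.300.

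**Figure D2:**
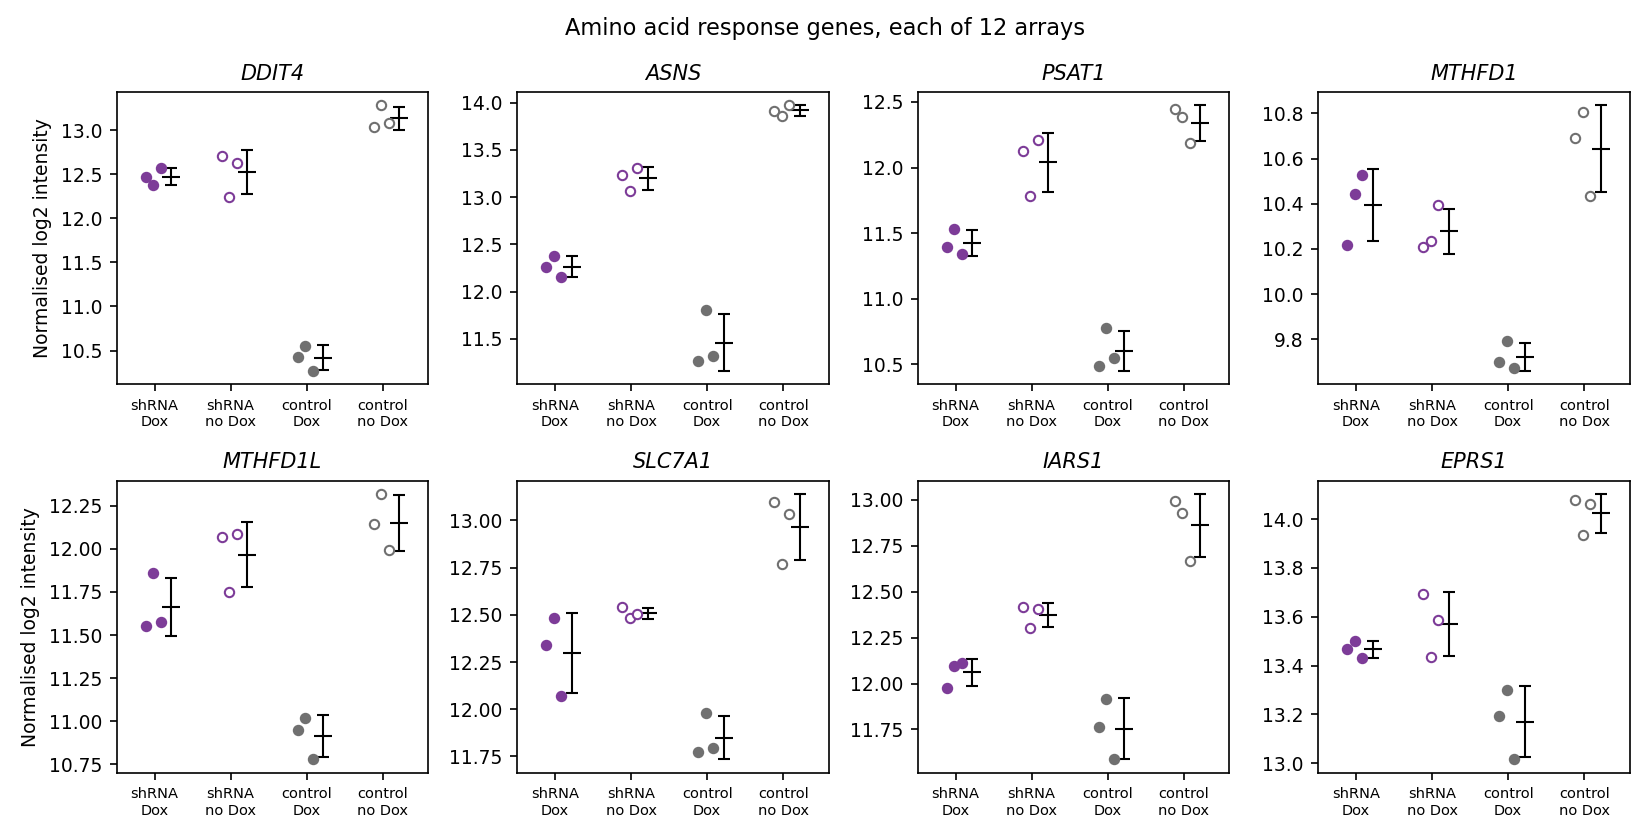
Normalised log2 intensity of 8 amino acid response genes on each of the 12 arrays, by line and doxycycline, with group mean and SD (n = 3) beside the points. The treated control arrays are lowest in every panel, and for DDIT4 they sit between 10.27 and 10.56.

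By list, 4 of 20 serine, asparagine, proline and one-carbon enzymes were called above 0, as were 2 of 25 ATF4 and integrated stress response genes, 2 of 18 cytosolic aminoacyl-tRNA synthetases and 1 of 23 amino acid transporters. The background was 0.462%, and no member of these lists was called below 0. Median differences were 0.48, 0.37, 0.51 and 0.35, against 0.0055 over all genes tested. With median scaling they were 0.21, 0.05, 0.19 and 0.09, against -0.14 over all genes, or 0.35, 0.19, 0.32 and 0.23 relative to all genes. Over the 24 alternatives they ranged from 0.21 to 0.51, 0.05 to 0.41, 0.19 to 0.53 and 0.06 to 0.41. Of the 18 synthetases, 17 lay above 0. ATF4 mRNA itself differed by -0.08 (adjusted p 0.85), and DDIT3 by 0.03. Falls numbered 5, 4, 2 and 3 in the shRNA line and 11, 10, 10 and 11 in the control line, in the same order of lists, where 5.01% and 8.11% of all genes tested fell.

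Promoters of these genes were searched for the C/EBP-ATF element TGATGNAAN on both strands, since ATF4 binds it. Within 250 bases before to 50 after any listed gene start (RefSeq, GRCh38.p14), 5 of 47 promoters of genes above 0 held it (10.6%). So did 5 of 38 of genes below 0 (13.2%) and 294 of 10007 of all genes tested (2.94%). The 4 amino acid response genes with a match are shown, each read along the strand of the match, with the match in capitals and its first base in the gene's direction counted from the start as 0.
ASNS, chr7:97872458-97872486, minus strand gene, base -68: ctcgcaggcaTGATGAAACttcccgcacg
MTHFD1L, chr6:150866347-150866375, plus strand gene, base -129: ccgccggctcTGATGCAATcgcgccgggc
IARS1, chr9:92293693-92293721, minus strand gene, base -14, match on the opposite strand: cgcacggaggTGATGCAACgcgctgaaaa
SLC7A1, chr13:29595663-29595691, minus strand gene, base 7, within the transcribed first exon: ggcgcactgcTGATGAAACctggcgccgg
The remaining gene above 0 with a match was LECT2, which is not of the amino acid response. No match was found for DDIT4, PSAT1, MTHFD1, EPRS1 or ULBP1, and not every called gene had a listed promoter. The genes below 0 with a match were HPX, RGL1, IRAG2, SERPINA6 and MX1, so the match was not limited to genes of either direction. A match describes these letters and no binding was measured.

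CEACAM5, CEACAM6, TSPAN8, TFF1, GPRC5A, ARL14 and CAPN8 rose in the shRNA line, in which their untreated level was the lowest of the 4 groups. TSPAN8 and those after it were chosen after their values were seen. CEACAM5, encoding the carcinoembryonic antigen, read 10.49, 11.16 and 10.55 with doxycycline and 8.06, 7.44 and 8.17 without it in the shRNA line. In the control line it read 10.87, 11.13 and 10.86 with doxycycline and 10.79, 10.47 and 10.01 without it. The untreated shRNA arrays lay below all the others. CEACAM5 rose 7.18-fold in the shRNA line, against a response of 0.53 (adjusted p 0.18) in the control line, a difference of 2.32 (SE 0.35, adjusted p 0.0178).

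CEACAM6, a GPI-anchored adhesion molecule of the same family, read 14.44, 14.52 and 14.44 with doxycycline and 12.87, 12.12 and 12.66 without it in the shRNA line. Control-line arrays read 13.90, 14.22 and 14.08 with doxycycline and 13.58, 13.56 and 13.55 without it. Its difference was 1.42 (SE 0.23, adjusted p 0.0316), and 1.19 with an adjusted p of 0.211 with median scaling. It passed the threshold in 5 of the 12 fits that left out an array, and CEACAM5 in 9. The specificity of the probes between these close relatives was not tested. CEACAM5 and CEACAM6 were the 2 called of 20 CEACAM, annexin and S100 genes, where 0.462% of all genes tested were called above 0. That list had a median of 0.16. With median scaling it was -0.05, or 0.09 relative to all genes.

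TSPAN8, a tetraspanin of the gut surface, read 14.22, 14.30 and 14.15 with doxycycline and 13.20, 13.14 and 13.19 without it in the shRNA line. The control line gave 14.66, 14.70 and 14.52 with doxycycline and 14.53, 14.78 and 14.56 without it. The untreated shRNA arrays were again apart, and the difference was 1.04 (SE 0.14, adjusted p 0.0106). It passed the threshold in all 12 fits that left out an array, and with median scaling the difference was 0.59, with an adjusted p of 0.711.

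TFF1, a secreted trefoil peptide of mucus, rose in both lines, by 1.5 in the shRNA line and 0.55 in the control line. GPRC5A, an orphan receptor induced by retinoic acid, rose by 1.84 and 0.67, and ARL14, an ARF-like GTPase, by 1.93 and 0.92. CAPN8, a calpain of mucous cells, rose by 1.56 in the shRNA line, and its control-line response of 0.33 did not pass the test. For each of these 4 the untreated shRNA line was the group apart, on the low side. With median scaling none of the 4 passed (adjusted p 0.638, 0.154, 0.299 and 0.211), and they passed in 2, 1, 3 and 2 of the 12 fits that left out an array. FCER1G, the Fc receptor gamma chain better known from leukocytes, rose by 2.62 in the shRNA line and 1.18 in the control line. The summed signal of the leukocyte markers ran from 5195 to 5398 in the treated and 6362 to 7172 in the untreated shRNA line, and from 7224 to 7287 in the treated and 9012 to 10070 in the untreated control line. That sum was thus lower with doxycycline in both lines, while FCER1G rose; its part in the result was not tested.

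CD44, the hyaluronan receptor, read 12.99, 13.28 and 12.87 with doxycycline and 12.22, 12.20 and 12.15 without it in the shRNA line. In the control line it read 11.85, 12.54 and 12.27 with doxycycline and 12.75, 12.98 and 12.56 without it. The treated shRNA arrays had the highest mean and overlapped the untreated control arrays, and the 2 lower groups overlapped as well. The difference was 1.40 (SE 0.25, adjusted p 0.0339) and a second probe gave 1.63, but the remaining probe of the gene gave -0.66. With median scaling the adjusted p was 0.188, and it passed in 3 of the 12 fits that left out an array. CD44 was the 1 called of 16 Wnt feedback and crypt genes, where 0.462% of all genes tested were called above 0. The median of that list was 0.35. HAS3, which makes the hyaluronan that CD44 binds, rose by 1.03 in the shRNA line, with a control-line response of -0.08. ITGA5, the fibronectin receptor's alpha chain, rose by 0.64 in the shRNA line, against a response of -0.28 in the control line.

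**Figure D3:**
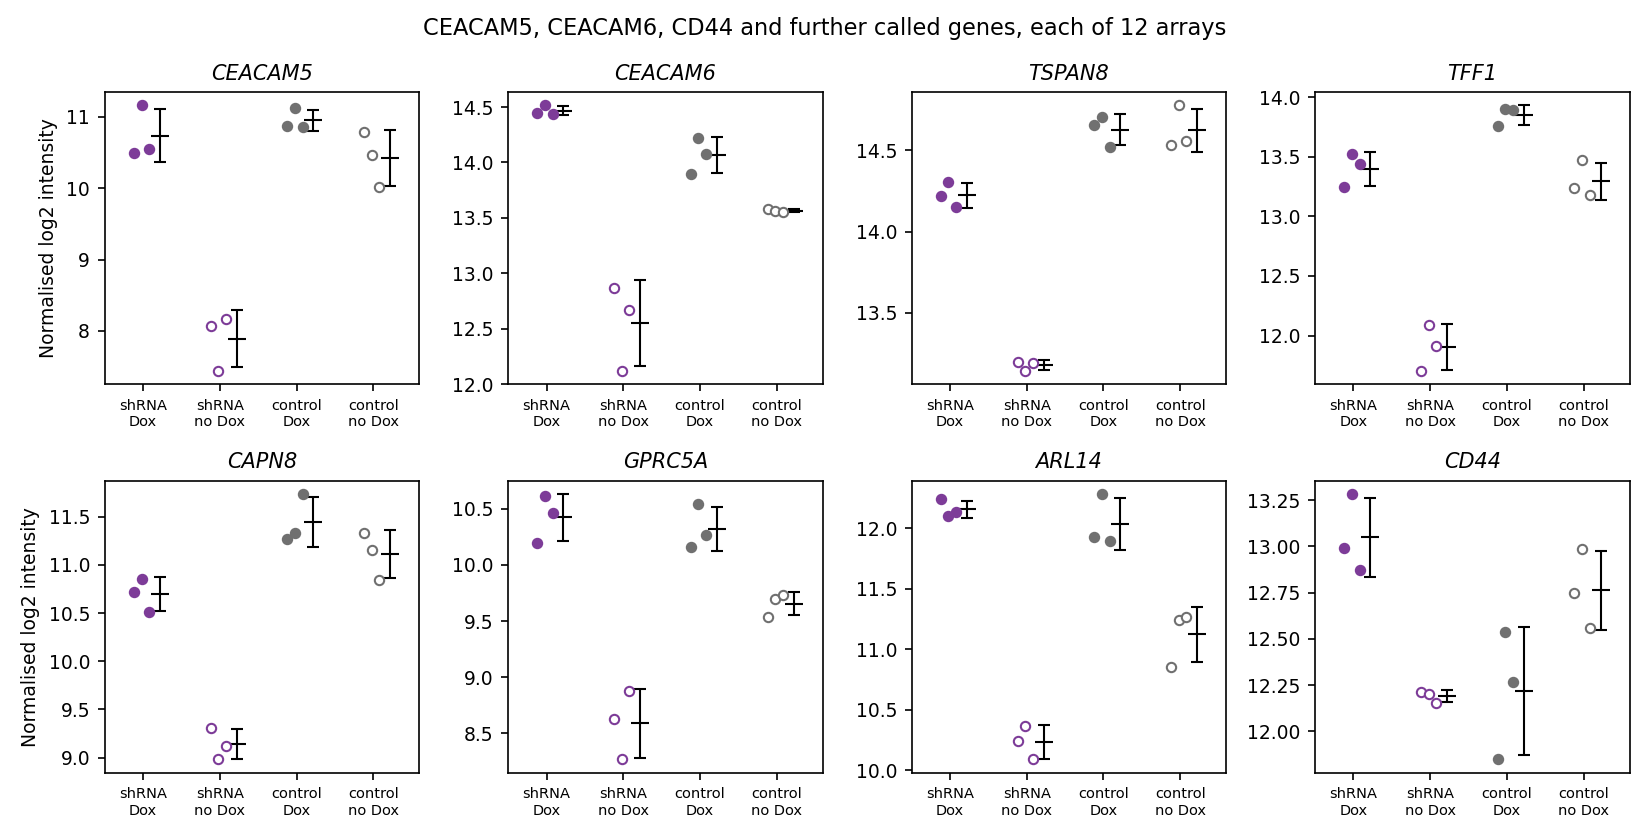
Normalised log2 intensity of CEACAM5, CEACAM6, TSPAN8, TFF1, CAPN8, GPRC5A, ARL14 and CD44 on each of the 12 arrays, by line and doxycycline, with group mean and SD (n = 3). In all panels but CD44 the untreated shRNA arrays are lowest, between 7.44 and 8.17 for CEACAM5, and in CD44 the treated shRNA arrays have the highest mean.

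The called plasma protein genes of liver type, which Caco-2 cells also express, responded lower in the shRNA line, with LECT2 as the exception. APOH, the phospholipid-binding beta-2-glycoprotein, read 12.76, 12.67 and 12.68 with doxycycline and 13.86, 13.72 and 13.75 without it in the shRNA line. Control-line arrays read 14.16, 13.85 and 14.03 with doxycycline and 13.98, 14.01 and 13.70 without it. The treated shRNA arrays lay below all others. APOH fell 2.11-fold in the shRNA line, against a control-line response of 0.12, a difference of -1.20 (SE 0.16, adjusted p 0.0106).

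F10, coagulation factor X, read 10.12, 9.77 and 10.24 with doxycycline and 10.74, 10.69 and 10.96 without it in the shRNA line. The control line gave 11.64, 11.51 and 11.71 with doxycycline and 10.88, 11.10 and 10.94 without it. F10 fell by 0.75 in the shRNA line and rose by 0.65 in the control line, a difference of -1.40 (SE 0.19). HPX, the heme scavenger hemopexin, fell by 1.20 in the shRNA line and had a response of 0.76 (adjusted p 0.064) in the control line. APOF, a lipid transfer inhibitor protein, fell by 0.67 in the shRNA line and rose by 0.39 in the control line.

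FGL1, a fibrinogen-like protein secreted by hepatocytes, read 9.61, 9.31 and 9.71 with doxycycline and 9.76, 9.88 and 9.78 without it in the shRNA line. In the control line it read 10.11, 10.36 and 10.52 with doxycycline and 9.12, 8.98 and 8.87 without it. The control arrays thus lay on either side of the shRNA arrays, and the gap between lines turned. FGL1 rose 2.53-fold in the control line, and the difference was -1.60 (SE 0.19, adjusted p 0.00698). Its 3 further probes were all below 0, at -1.42, -1.38 and -0.36. SERPINA6, the cortisol-binding globulin, had a response of 0.47 in the shRNA line and rose by 1.74 in the control line.

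Of 29 apolipoprotein and liver-type secreted genes, APOH and F10 were called below 0 and LECT2, a hepatokine, above 0. Of all genes tested, 0.382% were called below 0 and 0.462% above 0. The median of the list of 29 was -0.31, and it ranged from -0.61 with median scaling to -0.14 over the 24 alternatives. LECT2 fell in both lines and was undetected on all treated arrays of both, so no size is given. Without doxycycline it was detected on 1 array of the shRNA line and 3 of the control line. In the shRNA line 13 of the 29 fell and 1 rose, against 4 and 1 in the control line, where 5.01% and 8.11% of all genes tested fell in the 2 lines.

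TDO2, tryptophan dioxygenase, which opens the kynurenine pathway, read 8.01, 7.39 and 7.88 with doxycycline and 8.57, 8.59 and 8.66 without it in the shRNA line. Control-line arrays read 10.84, 10.75 and 10.87 with doxycycline and 9.91, 10.01 and 10.06 without it. The 4 groups did not overlap. TDO2 fell by 0.85 in the shRNA line and rose by 0.83 in the control line, a difference of -1.68 (SE 0.20, adjusted p 0.00698). KYNU, kynureninase of the same pathway, had a response of -0.03 in the shRNA line and rose by 0.69 in the control line. A second KYNU probe had responses of 0.41 and 0.76 in those lines, a difference of -0.35. HAL, the first enzyme of histidine breakdown, went the other way, with a response of 0.12 in the shRNA line and a fall of 0.60 in the control line.

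GSTA5, an alpha-class glutathione transferase, read 8.85, 8.67 and 9.26 with doxycycline and 9.98, 9.87 and 9.83 without it in the shRNA line. The control line gave 11.98, 11.69 and 12.06 with doxycycline and 10.92, 11.17 and 11.07 without it. GSTA5 fell by 0.97 in the shRNA line and rose by 0.86 in the control line, a difference of -1.82 (SE 0.22, adjusted p 0.00698). The alpha-class genes are close copies, and which of them the probe reads was not tested. STC1, the hormone stanniocalcin, had one of the widest differences at -2.40 (SE 0.47, adjusted p 0.0448). Its treated shRNA arrays read 6.91, 6.09 and 7.75, and 2 of the 3 were detected, against 10.86, 10.23 and 10.59 on the treated control arrays. It passed the threshold in 1 of the 12 fits that left out an array.

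**Figure D4:**
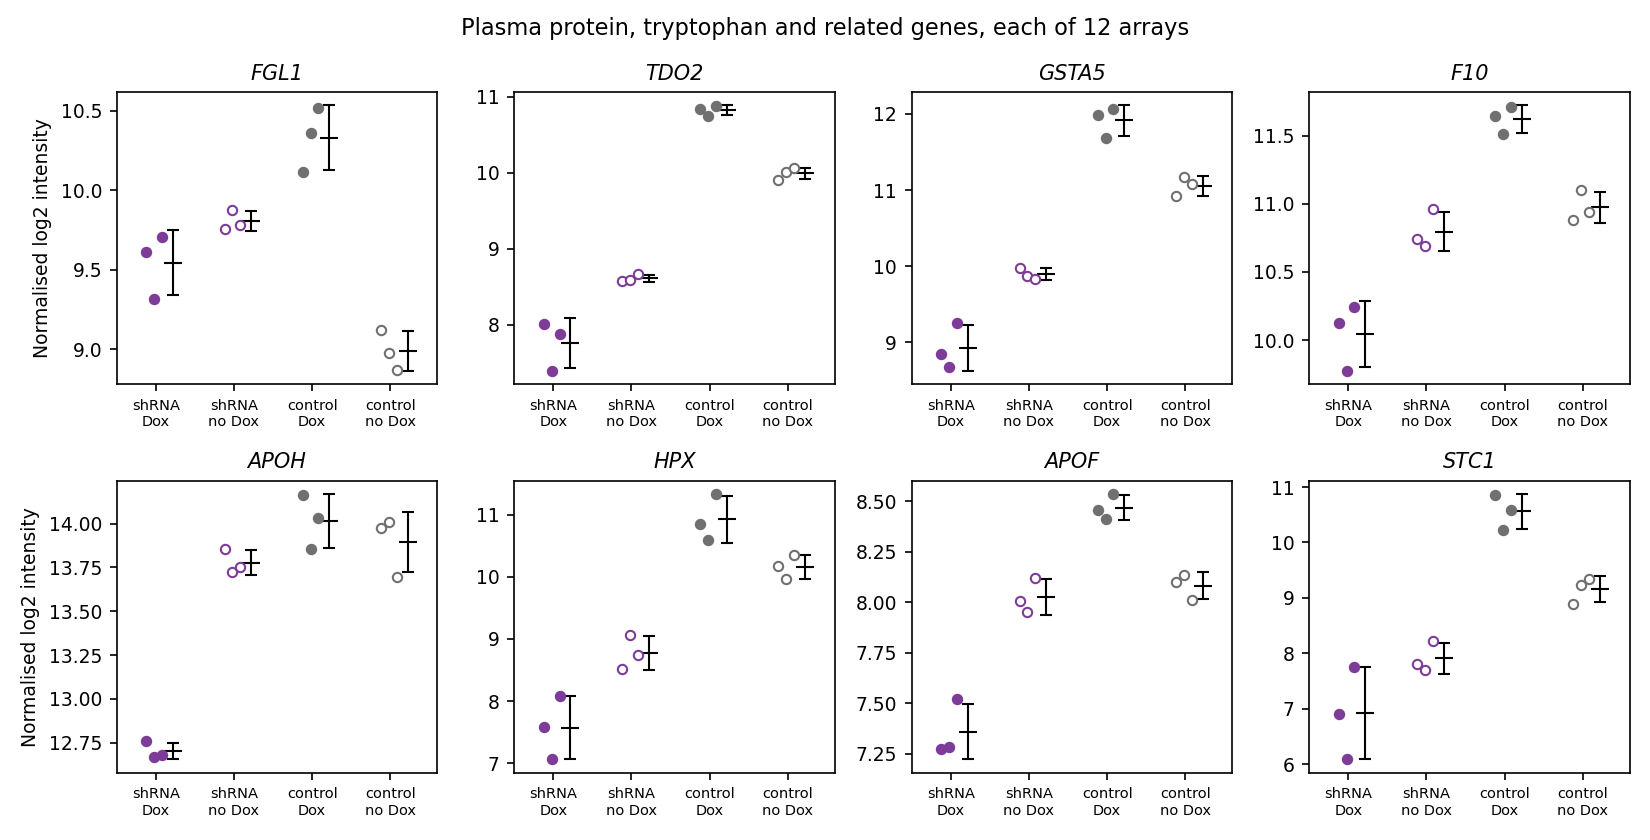
Normalised log2 intensity of 8 plasma protein, tryptophan and related genes on each of the 12 arrays, by line and doxycycline, with group mean and SD (n = 3). The treated shRNA arrays lie below the treated control arrays in every panel, between 12.67 and 12.76 for APOH.

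Sterol genes were called below 0 for 2 of 19 members of the cholesterol synthesis list, against a background of 0.382%. MSMO1 and SC5D, a methyl oxidase and a desaturase of the late pathway, had responses of -0.36 and -0.01 in the shRNA line that did not pass the test. They rose by 0.47 and 0.58 in the control line, and the differences were -0.83 and -0.59. The list's median was -0.44 and 17 of the 19 did not pass, among them EBP at -0.98 and MVD at -0.90. Further MSMO1 probes, each detected on all 12 arrays, gave differences of -1.18 and -0.04. MSMO1 passed in 1 and SC5D in 0 of the 12 fits that left out an array. LIPA, which hydrolyses cholesteryl esters in lysosomes, rose by 0.56 in the control line, and PCYT2, of phosphatidylethanolamine synthesis, fell by 0.33 in the shRNA line and rose by 0.49 in the control line. HSD3B1, a steroid dehydrogenase, rose by 0.80 in the control line. TMEM86B, a lysoplasmalogenase, fell by 0.86 in the shRNA line and rose by 0.74 in the control line.

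CYP4X1 is a cytochrome P450 of little-known substrate range. It was the 1 called of 23 xenobiotic enzymes and efflux transporters, where 0.382% of all genes tested were called below 0. It read 11.06, 10.38 and 11.33 with doxycycline and 12.57, 12.38 and 12.61 without it in the shRNA line. In the control line it read 11.48, 11.02 and 11.35 with doxycycline and 11.39, 11.23 and 11.41 without it. The untreated shRNA arrays lay above all others, and CYP4X1 fell by 1.60 in the shRNA line, a difference of -1.54 (SE 0.29, adjusted p 0.0412). LDHD, D-lactate dehydrogenase of mitochondria, differed by -2.15 and rose by 1.24 in the control line. None of 12 literature targets of LRH-1 was called by limma, against 0.844% of all genes tested, and 4 reached an unadjusted p under 0.05, 2 above and 2 below 0, against 15.9% of all genes.

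The interferon-induced genes IFIT1 and MX1 did not pass the test in the shRNA line and rose in the control line. IFIT1, which binds viral RNA lacking a host cap, read 7.12, 6.82 and 7.52 with doxycycline and 7.14, 6.97 and 7.20 without it in the shRNA line. Control-line arrays read 9.57, 9.29 and 9.38 with doxycycline and 7.86, 8.08 and 7.43 without it. The treated control arrays lay above all others, with a rise of 3.08-fold and a difference of -1.57 (SE 0.27, adjusted p 0.0318). MX1, an antiviral GTPase, had a response of -0.05 in the shRNA line and rose by 0.90 in the control line. These were the 2 called of 25 interferon-stimulated genes, where 0.382% of all genes tested were called below 0. The list's median was -0.17, and members such as OAS1 at 0.03 and ISG15 at -0.30 did not pass.

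TAP1, the peptide transporter of antigen presentation, had a response of -0.40 in the shRNA line and rose by 0.50 in the control line. MICA, a stress ligand of NKG2D, fell by 0.74 in the shRNA line and rose by 0.62 in the control line, a difference of -1.37. ULBP1, a ligand of the same receptor, differed by 1.77, in the opposite direction. These 3 were the called members of 19 MHC class I and immune ligand genes, where 0.844% of all genes tested were called. The list's median of 0.04 changed sign in 11 of 24 alternatives.

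After these values were seen, promoters were searched on both strands for GAAA, any 2 bases and GAAA, the core of the element that interferon-activated factors bind. It was found in 4 of 38 promoters of genes below 0 (10.5%), in 2 of 47 of genes above 0 (4.26%) and 388 of 10007 of all genes tested (3.88%). IFIT1, MX1 and TAP1, whose values had been seen before the search, were among the 4 below 0. The share below 0 was thus partly set by the choice of element, and no conclusion is drawn from it. These genes each held 2 matches, and 1 of each is shown, each along the strand of the match, with the match in capitals.
IFIT1, chr10:89392497-89392526, plus strand gene, base -116, opposite strand: accgaaagggGAAAGTGAAActaaagctag
MX1, chr21:41420559-41420588, plus strand gene, base 11, within the transcribed first exon: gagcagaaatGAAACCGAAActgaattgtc
TAP1, chr6:32853813-32853842, minus strand gene, base -128, opposite strand: ccatttagggGAAAGCGAAAtcgaaagcgg
Above 0 the matches were in MIR155HG and TSPAN8. ERICH4 was the remaining gene below 0 with a match. It had a response of 0.39 in the shRNA line and rose by 1.84 in the control line, a difference of -1.46.

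Noncoding RNA probes were called for 3 genes, all above 0, where 0.462% of all genes tested were called above 0. The number of noncoding RNA genes tested was not counted. MIR155HG, the host transcript of miR-155, rose by 0.87 in the shRNA line and fell by 0.80 in the control line. MIR21, whose probe reads the hairpin locus, read 9.24, 9.40 and 9.32 with doxycycline and 7.44, 7.56 and 7.19 without it in the shRNA line. The control line gave 8.59, 8.80 and 9.06 with doxycycline and 7.68, 8.06 and 8.04 without it. MIR21 rose in both lines, by 1.92 in the shRNA line and 0.89 in the control line, and its difference of 1.03 passed in 0 of the 12 fits that left out an array. The mature miRNAs were not measured. Their RefSeq sequences are given to identify the products, with the seed (bases 2 to 8) in capitals.
hsa-miR-21-5p: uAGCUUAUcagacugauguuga
hsa-miR-155-5p: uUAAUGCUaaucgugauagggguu
The 2 seeds differ, so the miRNAs belong to separate seed families. SNORD46, a small nucleolar RNA, rose by 0.72 in the shRNA line and fell by 0.54 in the control line.

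No gene of the mitosis and DNA replication lists was called by limma, although 24 of 33 mitosis genes reached an unadjusted p under 0.05, all above 0, as did 15.9% of all genes tested in either direction. All 33 lay above 0, with a median of 0.48, and 32 of 38 DNA replication genes did, with a median of 0.35. Over the 24 alternatives the medians ranged from 0.37 to 0.55 and from 0.18 to 0.38, both lowest with median scaling. In the shRNA line 5 of the mitosis genes and 16 of the replication genes fell, against 28 and 29 in the control line, where 5.01% and 8.11% of all genes tested fell in the 2 lines. The nearest to the threshold were NEK2, DLGAP5 and CDC25C, at 0.63, 0.88 and 0.78 (adjusted p 0.055, 0.056 and 0.059). Among called genes outside the lists, NCAPD3, a condensin II subunit, had a response of -0.27 in the shRNA line and fell by 1.00 in the control line. The near-identical FAM72B and FAM72D had responses of -0.20 and -0.39 in the shRNA line and fell by 0.97 and 1.48 in the control line, and a second probe of FAM72B lay below 0.

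Further genes above 0 follow, those from GPHN on chosen after their values were seen. LGALS14, a galectin known from placenta, had a response of 0.10 in the shRNA line and fell by 2.20 in the control line, a difference of 2.29. TSPAN2, a tetraspanin, rose by 1.17 in the shRNA line and differed by 1.5. NUP62CL and DHRS2, the second a short-chain dehydrogenase, fell by 1.10 and 0.92 in the control line and differed by 1.54 and 1.45, and a second DHRS2 probe gave 0.07. MIB1, a ubiquitin ligase that acts on Notch ligands, rose by 0.73 in the shRNA line and fell by 0.60 in the control line. GPHN, the scaffold gephyrin, rose by 0.55 and fell by 0.61, in the same order of lines. CTNND1, p120 catenin, also rose by 0.55 and fell by 0.61. A second CTNND1 probe, detected on 9 arrays, had responses of 0.42 and 0.34, a difference of 0.08. TOX3, GNG4 and CD2AP rose in the shRNA line by 0.93, 0.85 and 0.67, with control-line responses between -0.21 and -0.08.

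Below 0, RFTN1 rose by 0.44 in the shRNA line and 1.61 in the control line, a difference of -1.17 (SE 0.13). APH1B, a subunit of gamma-secretase, fell by 0.59 in the shRNA line and rose by 0.84 in the control line. CDH6, a cadherin of kidney and other epithelia, fell by 0.89 in the shRNA line, with a control-line response of 0.41 (adjusted p 0.051). RFTN1, APH1B and CDH6, with DDIT4, APOH, F10, FGL1, GSTA5, TDO2 and TMEM86B, were the 10 genes that passed in all 24 alternatives. AIF1, a calcium-binding protein of macrophages, fell by 0.55 in the shRNA line and rose by 0.70 in the control line. A second AIF1 probe had responses of 0.04 and 0.73 in those lines, a difference of -0.69. FREM2 and LRRN4 fell by 1.19 and 1.25 in the shRNA line, against responses of -0.11 and -0.25 in the control line. PCSK6, a proprotein convertase, fell by 0.92 in the shRNA line, against a response of -0.17 in the control line. A second PCSK6 probe, detected on 5 arrays, gave a difference of -0.04. CA2, carbonic anhydrase 2, and CYBRD1, the duodenal ferric reductase, had responses of -0.23 and -0.09 in the shRNA line and rose by 0.68 and 0.76 in the control line.

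For 17 of the 106 genes the probe was undetected on all 3 arrays of at least 1 group, 11 above 0 and 6 below. HOXB8, a HOX factor, was detected on 3 treated and 0 untreated shRNA arrays, and on 1 treated and 3 untreated control arrays. ACTG2, the smooth muscle actin, was detected on 3 treated and 0 untreated shRNA arrays, against 1 and 0 of the control line. The summed fibroblast marker signal was 5105 to 5766 in the treated and 3586 to 3927 in the untreated shRNA line, and 5876 to 6908 in the treated and 3627 to 3997 in the untreated control line. It was higher with doxycycline in both lines, and its part in the ACTG2 result was not tested. PRRX2 was detected on the 3 treated shRNA arrays and no other. Below 0, DAO, D-amino acid oxidase, and URAD, of urate breakdown, were detected on the 3 treated control arrays and no other. PRRX2, DAO and URAD thus passed the detection filter only through the group in which they were high. The filter bears on their direction, and they are included in the counts of called genes and forms. CD3D, a T cell receptor chain, was detected on no shRNA array and on all control arrays; the leukocyte marker sums given with FCER1G were higher in the control line, and their part in the result was not tested. AFM and C1S, encoding afamin and a complement protease, were undetected in the treated shRNA line.

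Further probes of the same genes did not take part in choosing them. Of the 106 genes, 29 had 37 further probes, and 34 of those probes had the sign of the chosen one, against 65% of the 4169 further probes of all genes tested. They read the same RNA samples as the chosen probes. The 106 genes were chosen for large differences, while the 65% includes many genes with a difference near 0. The shares are therefore not like for like. Of the 34, 18 reached an unadjusted p under 0.05.

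**Figure D5:**
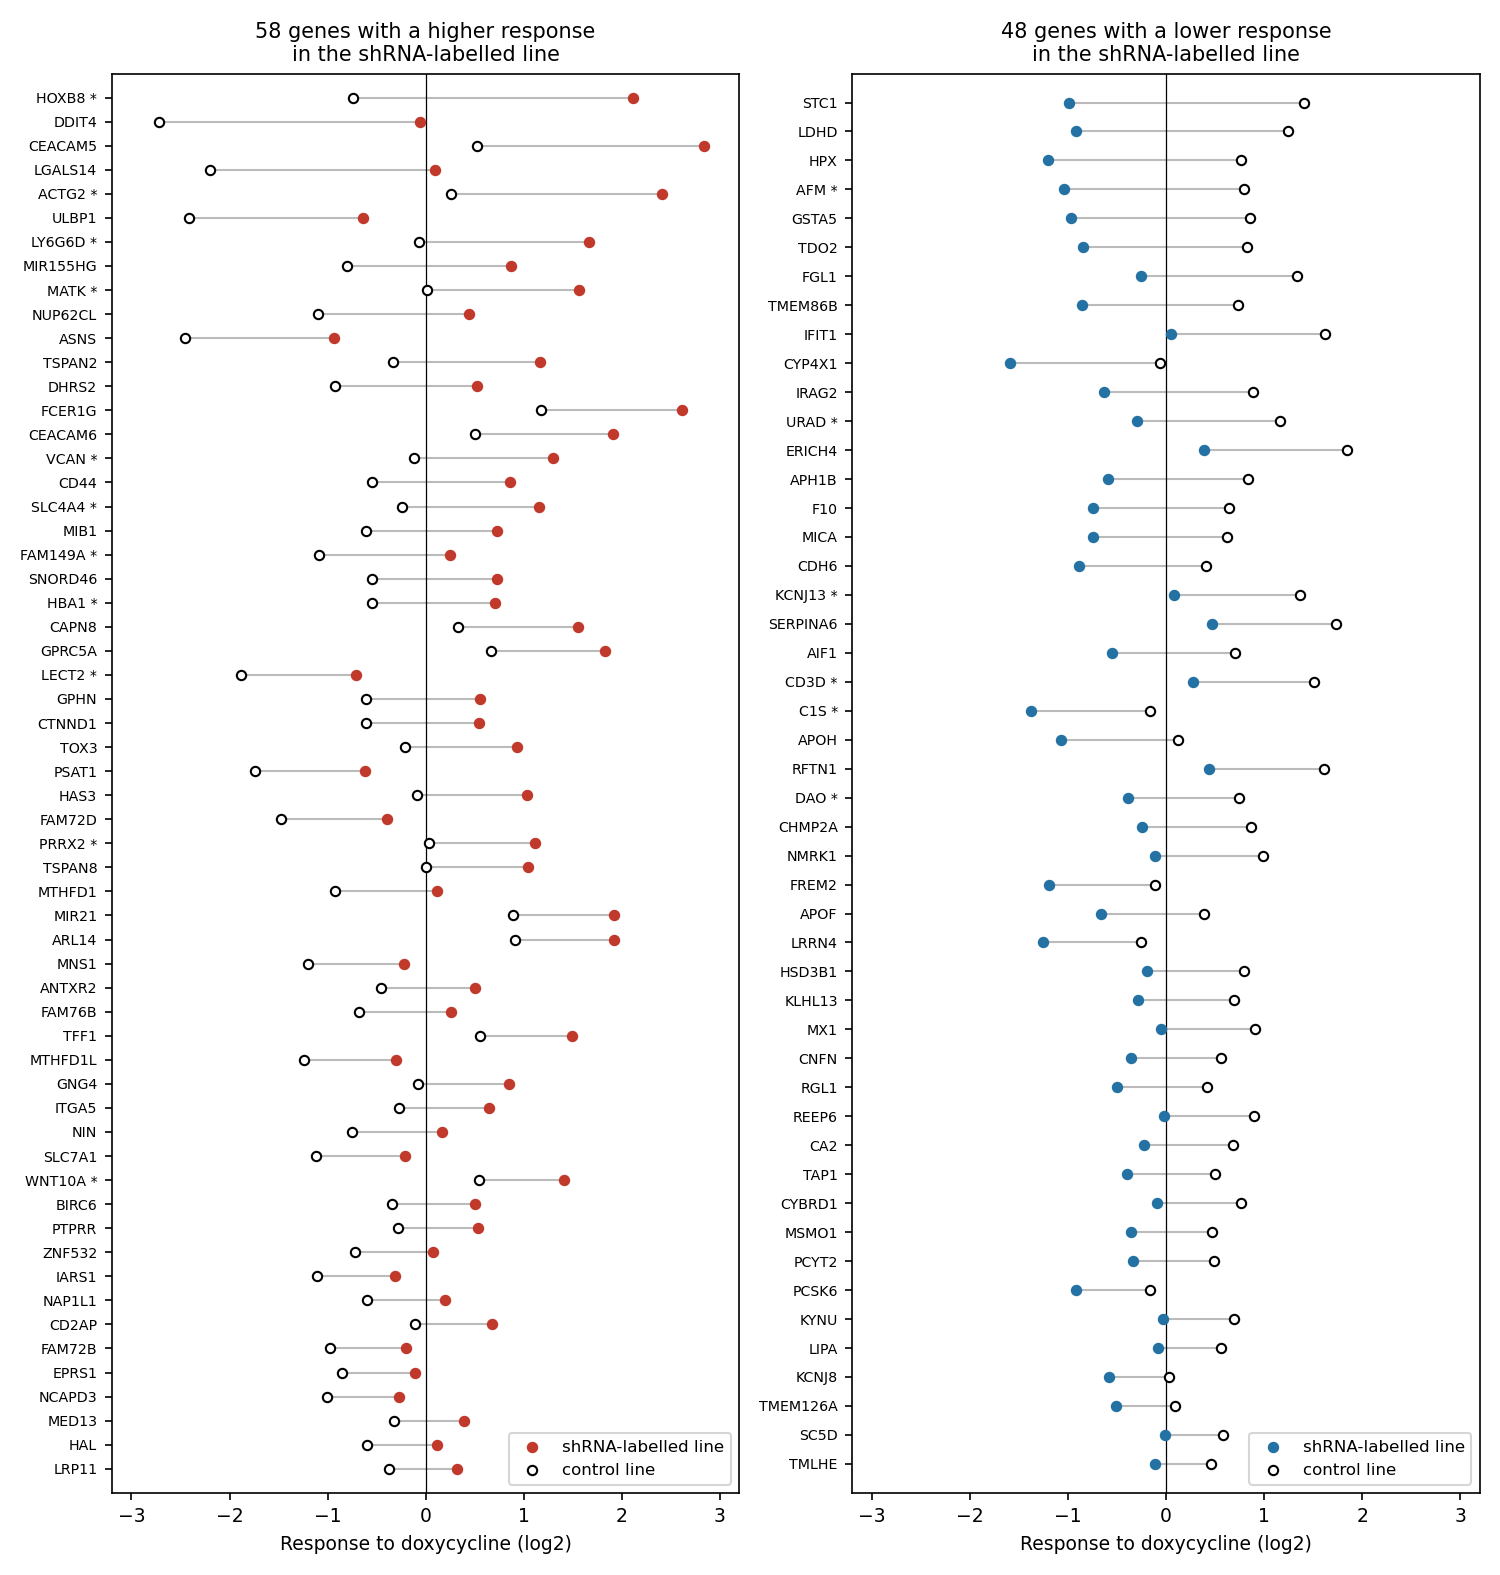
The 2 responses to doxycycline of each of the 106 genes, on a log2 scale, with filled points for the shRNA line and open points for the control line, sorted by the size of the difference. An asterisk marks genes undetected on all 3 arrays of a group, for which the distance is not a size of change. DDIT4 has the longest line among unmarked genes, at 2.66.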

How the data were processed

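Total RNA of 12 Caco-2 samples was measured on Illumina bead arrays, all on 1 chip. Probe intensity (average bead signal) and a detection p-value were deposited by the authors without normalisation, per the file headers. The submitters' processing notes list GenomeStudio and lumi and give no version. The authors' deposited normalised log2 values served only as an alternative. In limma 3.58.1 under R 4.3.3, background was corrected by normexp inferred from detection p-values (offset 16), followed by log2 and quantile normalisation. Probes with detection p under 0.05 on 3 or more arrays were kept and the brightest represented each gene, giving 12566 genes. A model of 4 group means was fitted with lmFit and eBayes. The contrast was the shRNA line's response minus the control line's, tested two-sided at 0.05 after Benjamini-Hochberg adjustment across all genes. Standard errors and intervals come from that fit. Its calls and mean error were tried on simulated data with independent noise for each gene and array. That simulation held no deviations shared across an array, and the standard errors and intervals were not tested.

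Genes called "rose" or "fell" passed the same threshold in that line. Members, lists, the promoter element TGATGNAAN and the genes named (NR5A2, the 14 largest differences each way among detected genes, the 4 largest each way among genes undetected in a group, and up to 4 called members of each list) were chosen with earlier results of these data known; other called genes were named after their values were seen. Of the 34 lists, 21 had no called member. Arrays were not paired, since the labels tie equal numbers to no shared source and not every same-numbered pair deviated together. Alternatives changed the background, scaling, detection filter, probe choice, variance model and weights, blocked the replicate number, or left out 1 array.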

Additional observations from a re-analysis of the deposited data

Results flagged for a closer look

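The test of the difference asks whether the shRNA line's response to doxycycline differs from the control line's. Genes named by the rule above, other than NR5A2, were taken from those that passed it, so their passing is no further result. The 39 of them that were detected in each group are listed here. Values are log2 differences of responses, shRNA line minus control line.

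Among stress and amino acid response genes the differences were 2.66 for DDIT4, 1.77 for ULBP1, 1.52 for ASNS, 1.12 for PSAT1 and 1.04 for MTHFD1. They were 0.93 for MTHFD1L, 0.91 for SLC7A1, 0.79 for IARS1 and 0.75 for EPRS1. Among surface genes CEACAM5 stood at 2.32, CEACAM6 at 1.42, FCER1G at 1.44, CD44 at 1.40 and TSPAN2 at 1.5. The other differences above 0 were 2.29 for LGALS14, 1.68 for MIR155HG, 1.54 for NUP62CL, 1.45 for DHRS2, 1.33 for MIB1 and 1.27 for SNORD46.

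Below 0, secreted proteins stood at -2.40 for STC1, -1.96 for HPX, -1.60 for FGL1, -1.40 for F10 and -1.20 for APOH. Metabolic enzymes stood at -2.15 for LDHD, -1.82 for GSTA5, -1.68 for TDO2, -1.59 for TMEM86B, -1.54 for CYP4X1, -0.83 for MSMO1 and -0.59 for SC5D. Interferon and immune genes stood at -1.57 for IFIT1, -1.37 for MICA, -0.95 for MX1 and -0.90 for TAP1. The others were -1.52 for IRAG2, -1.46 for ERICH4 and -1.43 for APH1B.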

How the results depend on the processing

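Each of the 106 genes kept its sign in every alternative that could test it, which their choice on the same arrays had nearly settled. The number of calls moved. It was 318 (170 above 0, 148 below) with no background correction, 168 (93 and 75) with an offset of 50, 64 (20 and 44) with median scaling and 43 (20 and 23) with no detection filter. It was 162 (96 and 66) for probes detected on all 12 arrays, 173 (99 and 74) at a detection p under 0.01, 527 (265 and 262) with array weights and 299 (164 and 135) with a trended, robust variance. The authors' deposited values gave 129, the mean of all kept probes 97 and a difference of at least 1.5-fold 105. With the replicate number as a block 84 genes passed (46 above 0, 38 below) and 67 of the 106 did so. Deviations of same-numbered arrays correlated at -0.19 to 0.23, over 0.1 for 6 of 18 pairs, and those of differently numbered arrays at -0.33 to 0.25. Leaving out 1 array gave 15 to 206 calls, 4 to 94 above 0 and 11 to 112 below. NR5A2 ranged from -0.48 with median scaling to -0.24 with the mean of its probes, and passed in none of the alternatives. Fewer genes tested (stricter filters) and fewer arrays are part of those alternatives' construction; for the others the cause was not tested. Signal near background limits the 17 genes undetected in a group.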
